A study of Mus musculus with 24 samples.

Results

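The genes described here are 38 components of the autophagy machinery and its receptors, found by gene symbol in the expression values of optogenetic mouse muscle tissue. They were chosen by their names as a pathway, with earlier results of these data known. All 38 were among the 56941 genes listed, and all 38 passed the filter on low counts, as did 13315 genes in all. They fall into 8 roles, with 5 genes of the initiation (ULK) complex, 4 of the class III PI3-kinase complex, 6 of the ATG9, ATG2, and WIPI group, 10 of the conjugation and ATG4 group, 5 of the ATG8 family, 4 cargo receptors, 3 mitophagy receptors, and the transcription factor gene Tfeb.

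RNA was sequenced from C2C12 muscle tissue in 4 conditions with 6 libraries each, 24 in all, of which 1 condition was the unstimulated control and the others were stimulated with light at 1, 4, or 10 Hz for 60 min each day. C2C12 is a mouse myoblast line that fuses into contractile myotubes, and every condition, the control included, carried the genotype ChR2::tdTomato, in which a blue-light-gated ion channel is fused to a red fluorescent protein. All tissues were differentiated on fibrin hydrogels for about 2 weeks in medium with horse serum and IGF-1. The comparison of each frequency with the control asks how the intensity of daily exercise changes the transcriptome. As a model, the tissue is a monolayer of 1 cell line without nerve or vessel cells, the study describes spontaneous twitching also in unstimulated tissues, and light and contraction cannot be told apart because the control was not stimulated. The 10 myotube markers were all detected in every condition, with summed levels of 14418 to 25538 TPM (transcripts per 1000000, a level per transcript length) in any library. On counts at 4 Hz, Myh8, Myl1, and Casq2 were higher (log2 fold change 0.37, 0.34, and 0.27, edgeR adjusted p = 0.01, 0.035, and 0.016). The other myotube markers did not pass at 4 Hz, and none passed at 1 or 10 Hz. The 5 macrophage markers summed to 74.6 to 103 TPM in the controls, 55.7 to 86.6 at 1 Hz, 56.4 to 94.1 at 4 Hz, and 59.8 to 79.0 at 10 Hz, nearly all of it from the lysosomal gene Cd68 (84.6 TPM in the controls), while Ptprc and Adgre1 were at 0 in the controls. The endothelial and adipocyte markers summed to at most 1.04 TPM in any library. The 4 neuron markers summed to 71.5 to 102 TPM without stimulation, where 2 of them were at 0. Under light the sums were 29.9 to 67.2 TPM (1 Hz), 31.9 to 63.4 TPM (4 Hz), and 79.8 to 118 TPM (10 Hz). Most of the sum came from Tubb3, whose mean fell from 68.8 TPM to 34.6 (1 Hz) and 31.7 (4 Hz), with log2 fold changes of -0.82 and -0.81. Syn1 went the other way, from 15.1 TPM to 17.5 and 16.3 (0.35 and 0.41, edgeR adjusted p = 0.062 and 0.023). Rbfox3 and Snap25 had means of at most 0.0191 TPM in any condition. The 6 markers of undifferentiated or cycling myoblasts summed to 30.5 to 41.4 TPM in the controls, 40.1 to 62.1 with 1 Hz, 30.4 to 47.2 with 4 Hz, and 38.4 to 54.9 with 10 Hz. Among them, at 1 and 4 Hz, Pax7 was lower (log2 fold change -1.58 and -1.53) and Myf5 (1.32 and 1.17) and Cdk1 (0.62 and 0.51) were higher, and at 4 Hz Mki67 (-1.15) and Ccnb1 (-1.06) were lower. The part of these markers in the results below was not tested.

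Autophagy encloses cytoplasm in a double membrane, the autophagosome, which then fuses with the lysosome. The ULK kinase complex starts the process, a lipid kinase complex marks the site, ATG9 and ATG2 supply membrane, and conjugation enzymes attach small ubiquitin-like ATG8 proteins to the growing membrane, where receptors dock with their cargo. In muscle, autophagy clears damaged proteins and mitochondria, and it is known to respond to exercise, fasting, and loss of nerve supply.

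TFEB, a factor that binds the E-box CACGTG and prefers the longer form TCACGTGA, drives many autophagy and lysosome genes, so the promoters of the members were searched for both. RefSeq promoters on GRCm38.p6, 300 bases each (250 before the start site and 50 from it on), were at hand for 31 of the 38 members, with 37 promoters. The E-box, which reads the same on both strands and lies within the longer form, was in 5 of the 37 promoters (13.5%) and in 7.15% of all 32851 promoters in the table. The longer form was in 1 (2.7%) and in 0.974% of all. The promoters with an E-box belong to Atg3, Atg5, Atg7, Atg14, and Bnip3, and those of Atg3 and Bnip3 are shown because these were the ones of the 5 genes that differed from the control in the comparisons that follow. E-boxes are in capitals, and both sequences run 5′ to 3′ along the strand named for each gene.

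Atg3, chr16:45158579-45158878, + strand: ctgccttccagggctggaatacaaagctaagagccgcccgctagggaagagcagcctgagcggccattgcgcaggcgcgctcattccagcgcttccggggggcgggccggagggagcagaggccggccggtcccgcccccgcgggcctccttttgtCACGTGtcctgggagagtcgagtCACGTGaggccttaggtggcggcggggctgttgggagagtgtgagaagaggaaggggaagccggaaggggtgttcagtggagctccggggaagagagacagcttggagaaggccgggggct
Bnip3, chr7:138909457-138909756, − strand: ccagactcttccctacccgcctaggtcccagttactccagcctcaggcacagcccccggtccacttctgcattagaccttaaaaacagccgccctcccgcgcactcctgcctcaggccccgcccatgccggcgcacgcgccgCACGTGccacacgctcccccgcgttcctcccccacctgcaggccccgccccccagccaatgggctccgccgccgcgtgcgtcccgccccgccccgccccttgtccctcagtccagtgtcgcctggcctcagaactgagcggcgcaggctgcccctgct

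The Atg3 promoter held 2 E-boxes, which began 94 and 71 bases before the start site, and the nearer of them had the longer form. In the Bnip3 promoter, 1 E-box began 108 bases before the start site. A match of letters is a description of the sequence, and binding was not measured.

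Some libraries stood apart in a way that bears on the short genes among the members. For each library, the median deviation from the controls in log2 CPM (counts per 1000000 after scaling by TMM) of the longest 1 in 5 genes was subtracted from that of the shortest 1 in 5. This index reached 0.90 at 1 Hz (lowest -0.09) and 0.84 at 4 Hz (lowest 0.17), against -0.10 to 0.23 for unstimulated tissue and -0.24 to 0.35 for 10 Hz. In 5 libraries it was 0.62 or more (1 Hz replicates 4 and 6, and 4 Hz replicates 1, 3, and 4), and in the other 19 it was at most 0.37. Over all genes, the shortest 1 in 5 had a median log2 fold change of 0.25 at 1 Hz and 0.37 at 4 Hz, and the longest 1 in 5 had -0.10 and -0.14. The share of counts from the mitochondrial genome was 1.37% to 2.72% in the controls and reached 8.90% at 4 Hz. For the called members shown by library, values with the length trend removed and without the 5 libraries are given beside the main ones. For the other members they are given where a call was lost. What the index reflects was not tested.

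**Figure D1:**
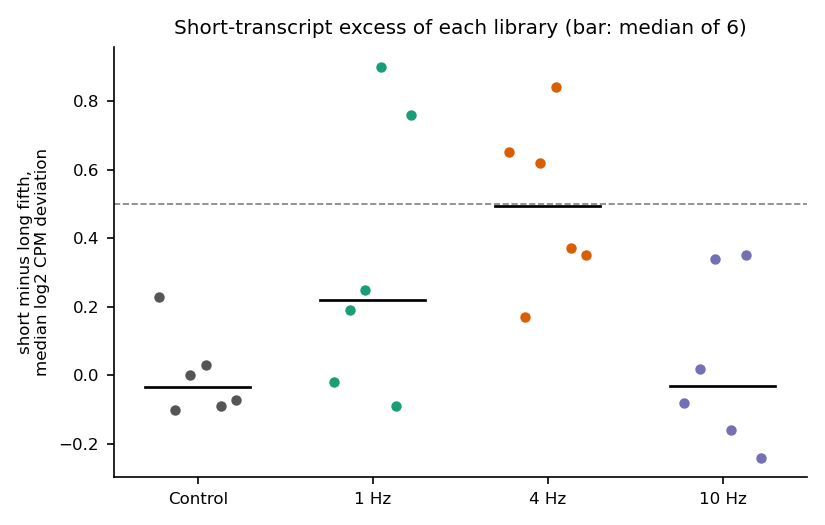
Difference between the shortest and the longest 1 in 5 genes in each library, in median log2 CPM deviation from the controls, by condition. The 5 libraries above the dashed line at 0.5 belong to 1 Hz and 4 Hz, and every control and 10 Hz library lies at 0.35 or lower.

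The members differ widely in level in unstimulated tissue. Per transcript length, control means ran from 5.36 TPM for Atg2a to 948 TPM for Sqstm1, with a median of 43.9 TPM over the 38 genes, and 8 genes were at 100 TPM or more. The 5 highest were Sqstm1, 2 mitophagy receptor genes, and 2 genes of the ATG8 family, while the receptor genes Optn (23.2 TPM) and Fundc1 (42.2 TPM) lay below the median. Sqstm1, which encodes the cargo receptor p62, had 948 TPM ± 51.2 (SD, n = 6), and the mitophagy receptor gene Bnip3 had 813 TPM ± 30.8. Gabarap had 688 TPM ± 25.2, Bnip3l 433 TPM ± 15.3, and Map1lc3a 372 TPM ± 30.9. Of the enzymes and scaffolds, Becn1 was highest at 122 TPM ± 9.83, and Tfeb stood at 15.7 TPM ± 2.51. Within the ATG8 family, Gabarap made up 49.4% ± 0.930 of the summed control TPM, Map1lc3a 26.7% ± 1.10, Map1lc3b 9.59% ± 0.510, Gabarapl1 8.66% ± 0.835, and Gabarapl2 5.64% ± 0.359. Gabarapl1 and Map1lc3b, neighbours in this order, lay within their spread of each other.

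**Figure D2:**
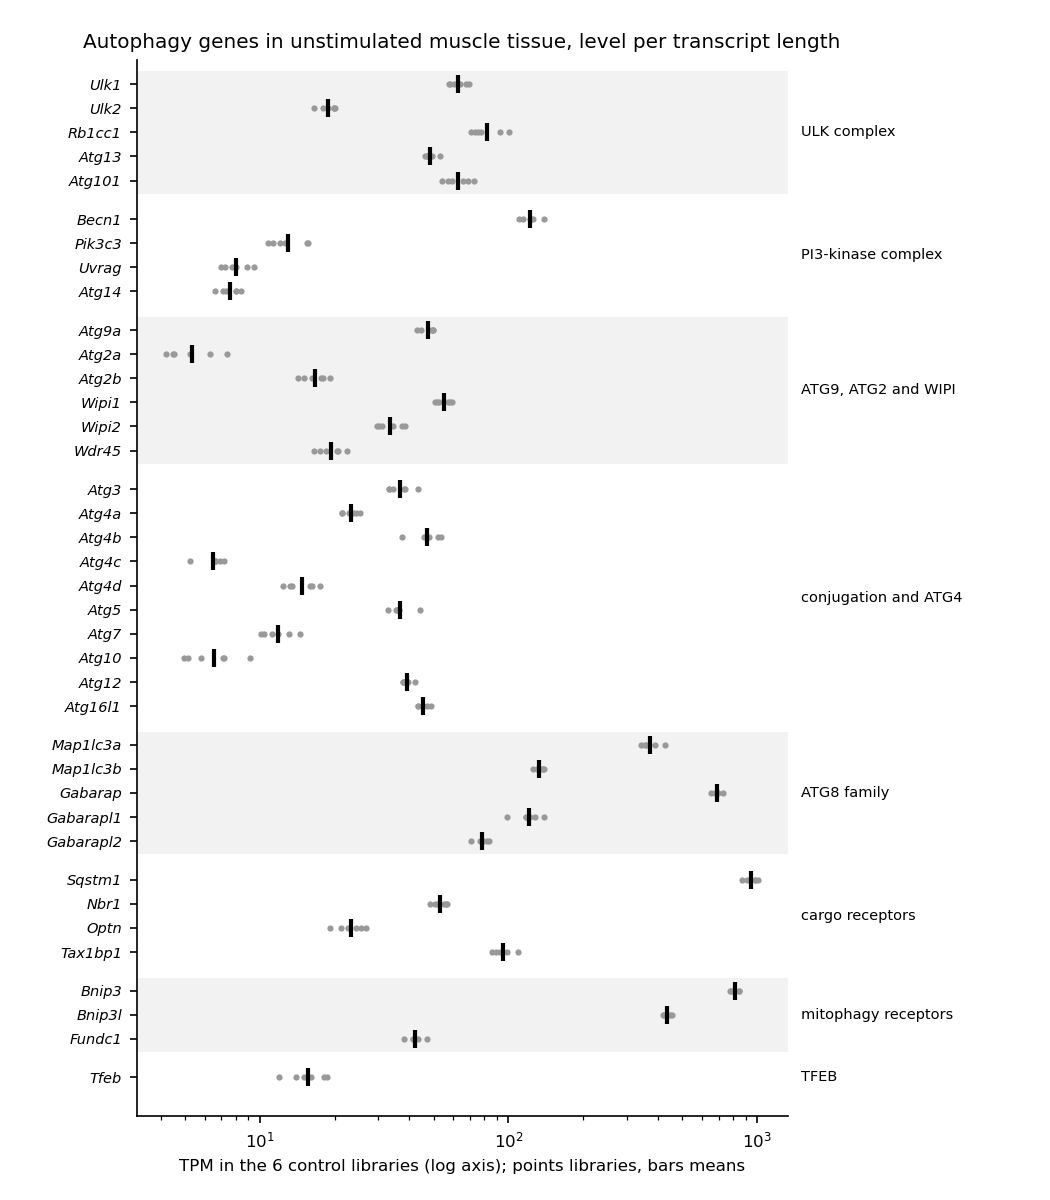
Level of the 38 genes in the 6 control libraries in TPM on a log axis, grouped by role. Points are libraries and bars are means. Sqstm1 at 948 TPM and Bnip3 at 813 TPM are the highest, and the ATG8 family lies above all 10 genes of the conjugation and ATG4 group.

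At 1 Hz 20 of the 38 autophagy genes (52.6%) differed from the control, at 4 Hz 24 (63.2%) did, and at 10 Hz 0 passed the threshold. Receptors of mitophagy and the ATG8 family were among the higher genes, and Atg3, Atg4b, Atg16l1, and Sqstm1 among the lower ones. At 1 Hz, 13 of the 38 were higher than in the control and 7 were lower (edgeR quasi-likelihood test, Benjamini-Hochberg adjusted p under 0.05 over all genes tested). That is 34.2% and 18.4% of the members, beside 19.2% and 18.1% of all genes. At 4 Hz, 16 were higher and 8 lower, or 42.1% and 21.1%, beside 27.5% and 23.9% of all genes. The share of lower members was thus near the background at both frequencies, and the share of higher members lay above it, a difference that was not tested. The changes were small. With the additional demand of an absolute log2 fold change over 0.5, 3 members remained at 1 Hz (2 higher, 1 lower) and 6 at 4 Hz (4 higher, 2 lower), where 14.9% and 25.1% of all genes met the same demand. On counts after TMM scaling, the median log2 fold change of the members was 0.08 at 1 Hz and 0.15 at 4 Hz. That of all genes was 0.04 and 0.06.

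At 10 Hz, 0 members passed, 0.0376% of all genes did, and DESeq2 also called 0 members. At an unadjusted p under 0.05 there was 1, Uvrag. Log2 fold changes at 10 Hz lay between -0.12 and 0.25 with standard errors (SE) of 0.0601 to 0.165, and their median was -0.01. In 1 of the 38 genes, Uvrag, all 6 libraries at 10 Hz lay outside the range of the controls, where 1.64% of all genes did so. The same was true of 9 members (23.7%, 5 above and 4 below) at 1 Hz beside 14.1% of all genes, and of 16 (42.1%, 11 above and 5 below) at 4 Hz beside 27.6%. The 3 comparisons share the control libraries. Tissue was sequenced in bulk, so fewer cells with a transcript and less of it per cell cannot be told apart.

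**Figure D3:**
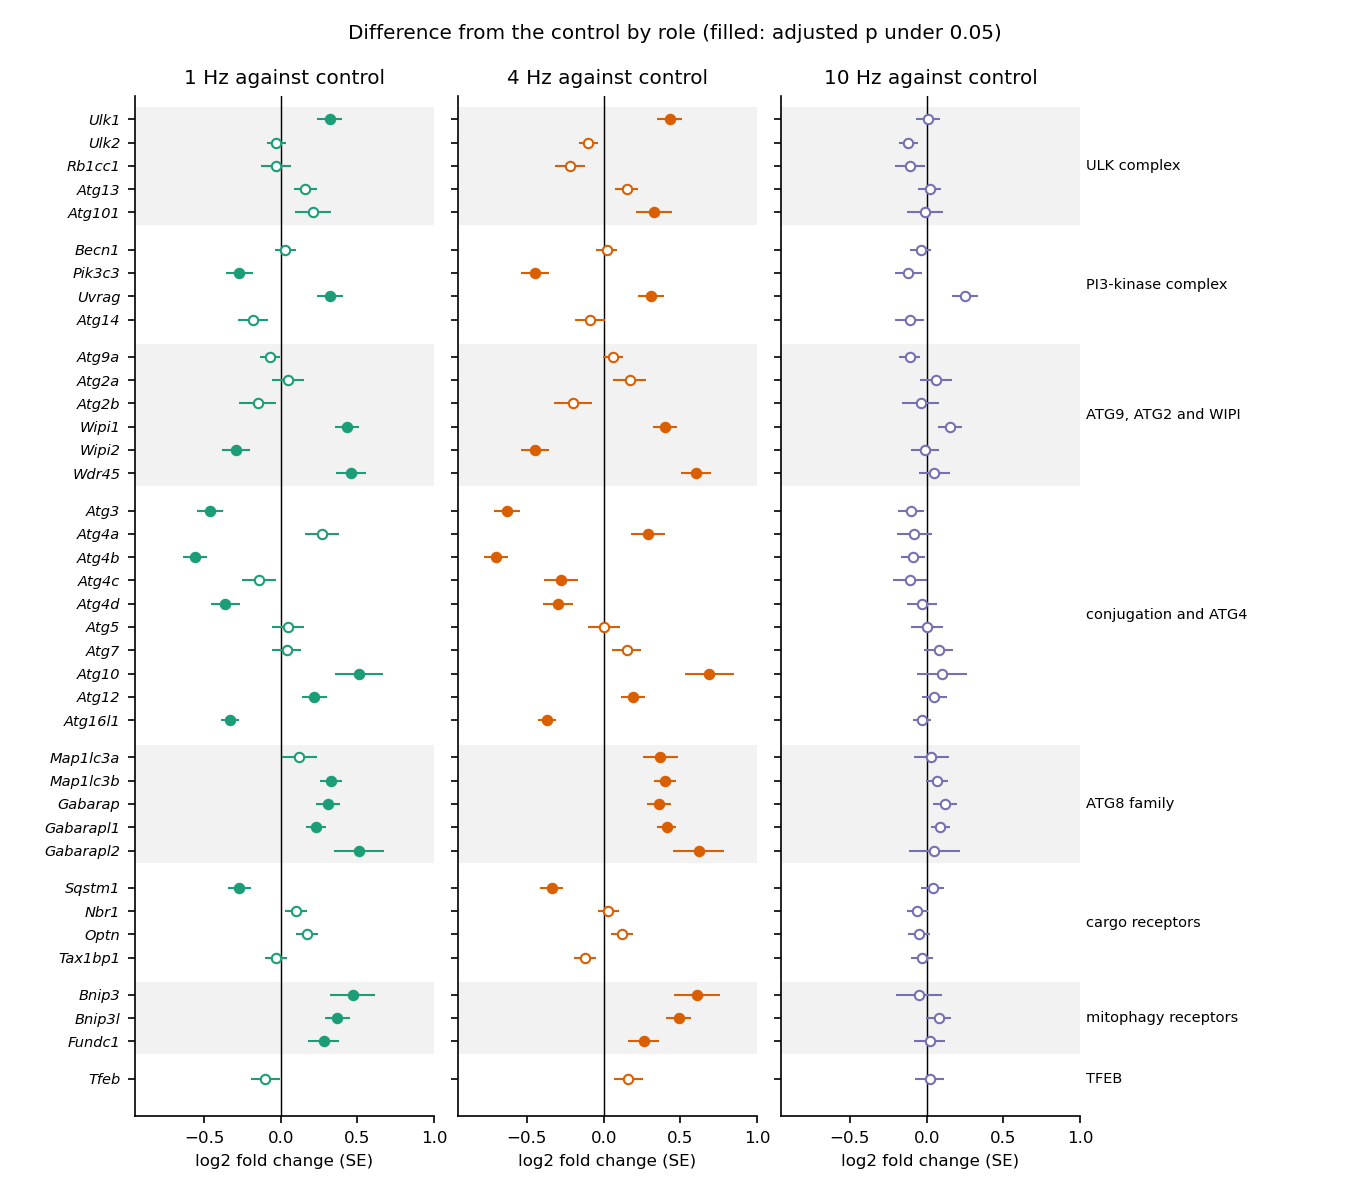
Log2 fold change with its SE of the 38 genes at 1, 4, and 10 Hz against the control, grouped by role (6 libraries per condition). Filled points passed an adjusted p of 0.05. At 1 and 4 Hz the ATG8 family and the mitophagy receptors lie to the right of 0 and Atg3, Atg4b, and Atg16l1 to the left, and at 10 Hz the 38 points lie between -0.12 and 0.25. On the log2(TPM + 1) scale Gabarapl1 and Map1lc3a at 1 Hz and Fundc1 at 4 Hz lie below 0.

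The unit of the values matters for the balance of directions. The counts were compared after TMM scaling, whereas on log2(TPM + 1) the median of all genes itself shifted by -0.14 at 1 Hz and -0.21 at 4 Hz. On that scale 1 member was higher and 8 lower at 1 Hz (2.63% and 21.1%, beside 3.64% and 21.9% of all genes), and 4 were higher and 14 lower at 4 Hz (10.5% and 36.8%, beside 5.92% and 35.9%). At 1 Hz the share of higher members was thus not above the background on this scale. The members had medians of -0.13 at 1 Hz and -0.21 at 4 Hz there, close to those of all genes. Once each library was centred on its own median, log2(TPM + 1) gave 11 higher and 5 lower at 1 Hz and 13 and 6 at 4 Hz. Of 13422 genes, 2255 were higher and 1723 lower at 1 Hz and 3485 and 2519 at 4 Hz. On this centred scale the medians at 1 and 4 Hz were 0.09 and 0.10 for the members and 0.07 and 0.10 for all genes. With the length trend removed from the counts, 17 were higher and 6 lower at 1 Hz and 15 and 7 at 4 Hz. Of 13315 genes, 2627 and 2457, and 3433 and 3165, were. Without the 5 libraries, the numbers were 11 and 5 at 1 Hz and 11 and 6 at 4 Hz. Of 13558 genes, they were 2147 and 2230, and 2289 and 2692. Among genes called in these fits, the higher ones made up 64.7% to 73.9% of the members and 46.0% to 58.0% of all genes. This difference was not tested. Over all 25 other fits of a comparison, uncentred TPM and single left-out libraries included, 1 of the 13 higher calls at 1 Hz held (Wdr45) and 4 of the 7 lower calls (Atg3, Atg4b, Atg16l1, and Sqstm1). At 4 Hz, 4 of the 16 higher calls (Wdr45, Map1lc3b, Bnip3, and Bnip3l) and 6 of the 8 lower calls (the same 4 genes with Pik3c3 and Wipi2) held in all 25. Each of the other higher calls missed the threshold on uncentred log2(TPM + 1). The changes below are relative to the other genes of the same libraries.

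**Figure D4:**
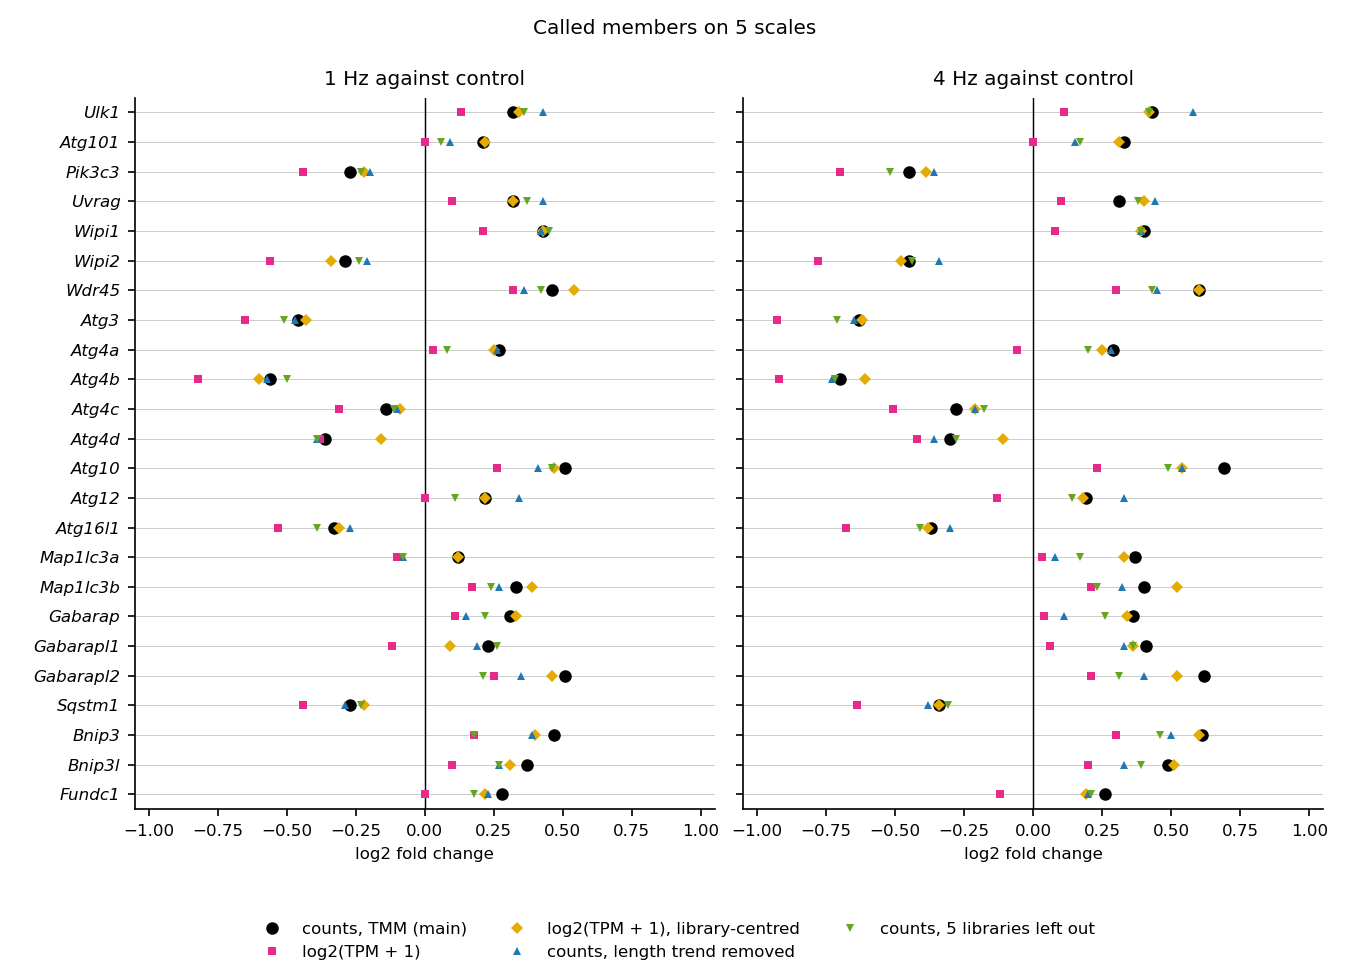
Log2 fold change of the 24 genes called in any comparison with the control, at 1 Hz and 4 Hz, on 5 scales. Squares, log2(TPM + 1) without centring, lie to the left of the other symbols for most genes, which moves Gabarapl1 at 1 Hz to -0.12 and Atg4a, Atg12, and Fundc1 at 4 Hz to -0.06, -0.13, and -0.12, and Map1lc3a at 1 Hz is at or below -0.08 on 3 of the 5 scales. Atg3 and Atg4b lie at -0.43 or lower on all 5 scales.

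In the ULK complex, the kinase gene Ulk1 was higher at both low frequencies. Its level was 165 to 203 CPM in the controls (median 190), 204 to 267 at 1 Hz (median 234), 218 to 282 at 4 Hz (median 257), and 160 to 206 at 10 Hz (median 189). All 6 libraries at 1 Hz and at 4 Hz lay above every control, and the 10 Hz libraries overlapped the controls. The log2 fold change was 0.32 (SE 0.0802, adjusted p = 0.0028) at 1 Hz and 0.43 (SE 0.0803, adjusted p = 1.0e-04) at 4 Hz. With the length trend removed these became 0.43 and 0.58, and without the 5 libraries 0.36 and 0.42, past the threshold in each. Ulk1 transcripts are long, at 2.00 times the median gene. Atg101, a partner that stabilizes ATG13, was higher at 4 Hz only by the test, at 0.33 (SE 0.117, adjusted p = 0.021), and the difference between 4 Hz and 1 Hz was 0.11 (adjusted p = 0.73). That call was lost with the length trend removed (0.15, adjusted p = 0.14), without the 5 libraries (0.17, adjusted p = 0.29), and on log2(TPM + 1) (0.00). It was also lost when control replicate 3, 4, or 5 was left out (adjusted p = 0.062, 0.067, and 0.065) or 4 Hz replicate 4 (adjusted p = 0.1). Rb1cc1 encodes the scaffold FIP200 and had the highest control TPM of the complex, 81.6 ± 11.9. It ran from 136 to 178 CPM in the controls (median 152), 117 to 191 at 1 Hz (median 144), 103 to 144 at 4 Hz (median 139), and 130 to 157 at 10 Hz (median 146). These ranges overlapped, and neither Rb1cc1 (-0.22 at 4 Hz, adjusted p = 0.067) nor Ulk2 or Atg13 passed in any comparison with the control.

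In the lipid kinase complex, the catalytic subunit and an accessory subunit went in opposite directions. Pik3c3 encodes VPS34, the kinase itself, and was at 22.7 to 30.8 CPM in the controls (median 25.4), 19.8 to 26.2 at 1 Hz (median 21.6), 17.9 to 23.2 at 4 Hz (median 18.5), and 22.1 to 26.5 at 10 Hz (median 24.1). Every library at 1 and 4 Hz lay below the control mean, although the ranges overlapped. The log2 fold change was -0.27 (SE 0.0892, adjusted p = 0.021) at 1 Hz and -0.45 (SE 0.0906, adjusted p = 2.5e-04) at 4 Hz. The 1 Hz call was lost with the length trend removed (-0.20, adjusted p = 0.068), without the 5 libraries (-0.23, adjusted p = 0.067), with TPM centred by library (-0.22, adjusted p = 0.054), and without control replicate 3 or 5 (adjusted p = 0.066 and 0.072). The 4 Hz call was kept, at -0.36 with the length trend removed and -0.52 without the 5 libraries. Uvrag, whose product joins VPS34 in a complex that acts on late steps and endosomes, was higher, by 0.32 (SE 0.0839, adjusted p = 0.0039) at 1 Hz and 0.31 (SE 0.0845, adjusted p = 0.0035) at 4 Hz. At both frequencies, and at 10 Hz, all 6 Uvrag libraries lay above the 20.4 to 22.8 CPM of the controls. The 10 Hz difference of 0.25 (SE 0.0843, adjusted p = 0.37) did not pass. Becn1, the regulatory subunit Beclin, was at 94.9 to 107 CPM in the controls (median 103), 87.1 to 125 at 1 Hz (median 99.9), 98.4 to 111 at 4 Hz (median 102), and 93.9 to 103 at 10 Hz (median 101). It did not pass at any frequency, with log2 fold changes of 0.03, 0.02, and -0.04 (SE 0.0674, 0.0676, and 0.0676), nor did Atg14, the subunit that directs the complex to autophagosome formation.

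The WIPI group, proteins that bind the lipid made by VPS34, split as well. Wdr45 encodes WIPI4 and was at 13.6 to 17.3 CPM in the controls (median 14.4), 18.0 to 23.7 at 1 Hz (median 19.8), 18.9 to 26.2 at 4 Hz (median 21.4), and 13.2 to 17.7 at 10 Hz (median 15.1). It was higher by 0.46 (SE 0.0978, adjusted p = 7.7e-04) at 1 Hz and by 0.60 (SE 0.0983, adjusted p = 2.1e-05) at 4 Hz, with every stimulated library of both frequencies above every control. Wdr45 stayed higher at 0.36 and 0.45 with the length trend removed, and without the 5 libraries at 0.42 and 0.43. Wipi1 likewise did not overlap the controls at 1 or 4 Hz, and 10 Hz did. Its range was 65.4 to 76.9 CPM in the controls (median 68.7), 82.9 to 105 at 1 Hz (median 94.2), 81.8 to 104 at 4 Hz (median 92.6), and 69.5 to 88.6 at 10 Hz (median 74.5). The log2 fold changes were 0.43 (SE 0.0776, adjusted p = 1.3e-04) and 0.40 (SE 0.0778, adjusted p = 1.5e-04), and they came to 0.42 and 0.39 with the length trend removed and 0.45 and 0.39 without the 5 libraries. Wipi2, whose product recruits the ATG16L1 complex to the membrane, was lower. It ran from 71.7 to 90.2 CPM in the controls (median 79.0), 56.2 to 81.4 at 1 Hz (median 63.8), 50.9 to 64.3 at 4 Hz (median 59.4), and 67.3 to 96.0 at 10 Hz (median 77.1). At 4 Hz all 6 libraries lay below the controls (-0.45, SE 0.0912, adjusted p = 2.6e-04), and at 1 Hz the ranges overlapped (-0.29, SE 0.0905, adjusted p = 0.016). The 1 Hz call of Wipi2 was lost without control replicate 3 (adjusted p = 0.054) and without the 5 libraries (-0.24, adjusted p = 0.063). With the length trend removed both calls were kept (-0.21, adjusted p = 0.049, and -0.34), and without the 5 libraries the 4 Hz call was (-0.44). Atg9a, which encodes the membrane-spanning scramblase of the pathway, and the lipid transfer genes Atg2a and Atg2b did not pass in any comparison with the control.

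The enzymes that process and attach ATG8 proteins held the largest falls among the members. ATG4 proteases trim ATG8 proteins before conjugation and release them afterwards, and Atg4b is the best studied of the family. Atg4b was at 51.5 to 63.3 CPM in the controls (median 55.9), 34.9 to 43.1 at 1 Hz (median 38.3), 31.9 to 36.6 at 4 Hz (median 35.4), and 45.6 to 63.9 at 10 Hz (median 52.5). No library at 1 or 4 Hz came within the control range, and the log2 fold change was -0.56 (SE 0.0772, adjusted p = 5.1e-06) and -0.70 (SE 0.0780, adjusted p = 1.1e-07). Atg3, the conjugating enzyme that passes ATG8 proteins to the membrane lipid, ran from 41.1 to 50.9 CPM in the controls (median 45.0), 30.6 to 39.6 at 1 Hz (median 31.2), 25.2 to 33.8 at 4 Hz (median 29.5), and 39.0 to 45.5 at 10 Hz (median 42.0). It fell by 0.46 (SE 0.0841, adjusted p = 1.6e-04) and 0.63 (SE 0.0851, adjusted p = 1.7e-06) on the log2 scale, again without overlap with the controls. Atg16l1, the scaffold that places the ATG12 conjugate on the membrane, was at 82.7 to 90.3 CPM in the controls (median 87.8), 62.6 to 74.4 at 1 Hz (median 69.8), 62.2 to 72.7 at 4 Hz (median 67.9), and 76.9 to 92.3 at 10 Hz (median 85.9). Its log2 fold change was -0.33 (SE 0.0603, adjusted p = 1.3e-04) at 1 Hz and -0.37 (SE 0.0606, adjusted p = 1.9e-05) at 4 Hz, and neither frequency overlapped the controls. These 3 genes are 0.81, 0.82, and 1.27 times as long as the median gene. Atg4b and Atg3 lie in the second shortest 1 in 5 of all genes and Atg16l1 in the second longest. The 3 genes kept their calls in all 25 other fits of both comparisons. With the length trend removed Atg4b came to -0.57 and -0.73, Atg3 to -0.47 and -0.65, and Atg16l1 to -0.27 and -0.30. Without the 5 libraries these were -0.50 and -0.72, -0.51 and -0.71, and -0.39 and -0.41. Atg3 is the gene whose promoter held both E-boxes, 1 of them in the longer form.

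The remaining members of the conjugation group were less stable. Atg4d was lower, with log2 fold changes of -0.36 (SE 0.0974, adjusted p = 0.0057) at 1 Hz and -0.30 (SE 0.0982, adjusted p = 0.013) at 4 Hz. Both Atg4d calls were lost with TPM centred by library (-0.16, adjusted p = 0.23, and -0.11, adjusted p = 0.37), and the 4 Hz call also without the 5 libraries (-0.28, adjusted p = 0.061). Atg4c was lower at 4 Hz (-0.28, SE 0.112, adjusted p = 0.042) and Atg4a higher (0.29, SE 0.112, adjusted p = 0.033, and -0.06 on log2(TPM + 1)), and both had the same sign at 1 Hz without passing (-0.14 and 0.27). The Atg4c call was lost with the length trend removed (-0.21, adjusted p = 0.093), without the 5 libraries (-0.18, adjusted p = 0.27), and in 6 of 12 fits without 1 library (control replicates 2, 4, 5, and 6, and 4 Hz replicates 1 and 4, with adjusted p from 0.057 to 0.09). The Atg4a call was lost without the 5 libraries (0.20, adjusted p = 0.11) and in 5 of 12 fits without 1 library (control replicates 3, 4, and 5, and 4 Hz replicates 3 and 6, adjusted p from 0.056 to 0.18), and without 4 Hz replicate 3 the difference was 0.17.

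Among the ubiquitin-like system genes, Atg10, an E2-like enzyme for ATG12, was higher by 0.51 (SE 0.156, adjusted p = 0.013) and 0.69 (SE 0.157, adjusted p = 8.3e-04). It is one of the lowest members, at 3.47 to 7.13 CPM in the controls, and its exons overlap on the opposite strand those of Rps23, a ribosomal protein gene with 590 CPM in the controls against 5.13 for Atg10. Rps23 itself was higher by 0.59 (adjusted p = 0.0071) and 0.77 (adjusted p = 5.0e-04). The study names a directional library kit, and the labels name a ribodepletion kit for low-input samples. Whether reads were then assigned by strand is not given in the sources used here, so it is uncertain how far reads of the pair were kept apart. The Atg10 call at 1 Hz was lost without the 5 libraries (0.46, adjusted p = 0.05). With the length trend removed as well, the 1 Hz call was kept (0.45, adjusted p = 0.031). The 4 Hz call was lost there (0.43, adjusted p = 0.054). Atg12 was higher by 0.22 (SE 0.0799, adjusted p = 0.035) at 1 Hz and 0.19 (SE 0.0801, adjusted p = 0.046) at 4 Hz, where log2(TPM + 1) gave -0.13. Its calls were lost in 5 and 9 of 12 fits without 1 library (at 1 Hz without control replicates 3, 4, and 5 and 1 Hz replicates 4 and 6, and at 4 Hz without control replicates 1 to 5 and 4 Hz replicates 1, 3, 5, and 6), with adjusted p up to 0.23 and 0.24 and differences down to 0.12 in both. Both were also lost without the 5 libraries (0.11 and 0.14). Of the 25 other fits, the 1 Hz call was lost in 10 and the 4 Hz call in 19. The fits that lost the 4 Hz call included DESeq2 and TPM centred by library (0.18, adjusted p = 0.07). Atg5, the partner of ATG12, and Atg7, the E1-like enzyme that activates both conjugation arms, did not pass in any comparison with the control, at 0.05 and 0.04 at 1 Hz and -0.00 and 0.15 at 4 Hz (SE 0.0944 to 0.105).

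Atg10 aside, exons of 24 of the 38 genes overlap exons on the opposite strand in GENCODE M39 on GRCm39. Of the genes with calls that held in all fits, Atg4b (chr1:93679222-93718332, + strand) overlaps exons of Thap4, which had log2 fold changes of 0.08 and 0.23 (adjusted p = 0.41 and 0.009). Atg3 (chr16:44978748-45008901, + strand) overlaps Slc35a5, which had 15.4 CPM in the controls and was lower as well (-0.83 and -1.06, adjusted p = 1.6e-04 and 5.9e-06). Sqstm1 (chr11:50089572-50107684, − strand) overlaps Mgat4b, which was higher (0.21 and 0.20, adjusted p = 0.021 and 0.019). Map1lc3b overlaps Zcchc14, which was lower (-0.69 and -0.84, adjusted p = 1.9e-04 and 1.0e-05). Among the less stable genes, Kri1 beside Atg4d was lower (-0.45 and -0.46, adjusted p = 0.001 and 5.0e-04), and Ap3s1 beside Atg12 was higher (0.40 and 0.33, adjusted p = 8.8e-04 and 0.0026). Psmd10 beside Atg4a was higher at 4 Hz (0.43, adjusted p = 0.014). These 3 moved the same way as the member. The part of these neighbours in the members' counts was not tested.

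The ATG8 family itself, the proteins that coat the autophagosome and hold the cargo receptors, had 4 of 5 genes called higher on the count scale at 1 Hz and 5 of 5 at 4 Hz, beside 19.2% and 27.5% of all genes. Map1lc3b encodes LC3B, the usual marker of autophagosomes. It was at 129 to 142 CPM in the controls (median 133), 143 to 196 at 1 Hz (median 166), 157 to 194 at 4 Hz (median 179), and 129 to 151 at 10 Hz (median 142). The libraries at 1 and 4 Hz all lay above the controls, and the log2 fold change was 0.33 (SE 0.0718, adjusted p = 9.6e-04) and 0.40 (SE 0.0719, adjusted p = 6.4e-05). Gabarap, the most abundant of the 5 genes, ran from 367 to 425 CPM in the controls (median 388), 422 to 548 at 1 Hz (median 476), 456 to 555 at 4 Hz (median 507), and 388 to 501 at 10 Hz (median 398). It was higher by 0.31 (SE 0.0774, adjusted p = 0.0027) and 0.36 (SE 0.0775, adjusted p = 4.3e-04), and 4 Hz alone did not overlap the controls. Gabarapl1 was at 104 to 124 CPM in the controls (median 115), 120 to 151 at 1 Hz (median 131), 132 to 161 at 4 Hz (median 155), and 115 to 128 at 10 Hz (median 123). At 4 Hz it lay above all controls (0.41, SE 0.0646, adjusted p = 1.3e-05), and at 1 Hz the difference was 0.23 (SE 0.0645, adjusted p = 0.0064) on counts, -0.12 on log2(TPM + 1), and 0.09 (adjusted p = 0.44) with TPM centred by library. Gabarapl2 was higher by 0.51 (SE 0.164, adjusted p = 0.017) and 0.62 (SE 0.165, adjusted p = 0.0033), and Map1lc3a by 0.37 (SE 0.115, adjusted p = 0.0094) at 4 Hz, with 0.12 (adjusted p = 0.44) at 1 Hz.

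All 5 ATG8 genes are shorter than the median gene, at 0.33 to 0.66 times its length. Map1lc3a, Gabarap, and Gabarapl2 are among the shortest 1 in 5 of all genes, with medians of 0.25 and 0.37 at 1 and 4 Hz, and Map1lc3b and Gabarapl1 are in the next 1 in 5, with medians of 0.09 and 0.11. With the length trend removed, Map1lc3b stayed higher at 0.27 (adjusted p = 3.0e-04) and 0.32 (adjusted p = 2.7e-05) and Gabarapl1 at 0.19 (adjusted p = 0.033) and 0.33 (adjusted p = 2.5e-04). Gabarap came to 0.15 (adjusted p = 0.015) at 1 Hz and missed the threshold at 4 Hz with 0.11 (adjusted p = 0.054). Map1lc3a came to -0.08 and 0.08 and lost its 4 Hz call (adjusted p = 0.35). Gabarapl2 kept both calls, at 0.35 (adjusted p = 0.017) and 0.40 (adjusted p = 0.0052). Without the 5 libraries, Map1lc3b kept 0.24 and 0.23 (adjusted p = 0.0035 and 0.0071), Gabarap 0.22 and 0.26 (adjusted p = 0.027 and 0.015), and Gabarapl1 0.26 and 0.36 (adjusted p = 0.0056 and 7.9e-04). Map1lc3a came to -0.08 and 0.17 (adjusted p = 0.53 and 0.17). Gabarapl2 kept its 4 Hz call (0.31, adjusted p = 0.04) and lost that at 1 Hz (0.21, adjusted p = 0.14), as it did without 1 Hz replicate 4 or 6 alone (adjusted p = 0.07 and 0.083). With the length trend removed and the 5 libraries left out, Gabarapl2 lost both calls (0.18, adjusted p = 0.078, and 0.21, adjusted p = 0.058). Per length, the summed TPM of the 5 genes came to 1393 ± 62.0 without stimulation. With 1 Hz it was 1450 ± 49.4, with 4 Hz 1461 ± 120, and with 10 Hz 1447 ± 65.7, means that lay within the spread of the libraries. The share of Gabarap in this sum was 51.3% ± 1.93 at 1 Hz and 48.4% ± 2.15 at 4 Hz, against 49.4% ± 0.930 in the controls. The part of transcript length in the rises of this family was not tested beyond these values.

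Of the cargo receptors, Sqstm1 was lower and the others did not pass. The receptor p62 binds ubiquitinated cargo and is itself degraded in autophagosomes. Sqstm1 had 1022 to 1166 CPM in the controls (median 1096), 829 to 997 at 1 Hz (median 914), 712 to 978 at 4 Hz (median 874), and 1019 to 1246 at 10 Hz (median 1122). All 12 libraries at 1 and 4 Hz lay below all controls, and all 10 Hz libraries but 1 fell in or above the control range. The log2 fold change was -0.27 (SE 0.0740, adjusted p = 0.0056) at 1 Hz and -0.34 (SE 0.0740, adjusted p = 5.5e-04) at 4 Hz, and the calls held in all 25 other fits. It came to -0.29 and -0.38 with the length trend removed, and without the 5 libraries to -0.23 and -0.31. Nbr1, a related receptor for ubiquitinated cargo, Optn, a receptor that serves mitophagy and bacterial clearance, and Tax1bp1, which takes up protein aggregates, ranged from -0.03 to 0.17 at 1 Hz and from -0.12 to 0.12 at 4 Hz. Optn came nearest, at 0.17 (SE 0.0719, adjusted p = 0.07) at 1 Hz.

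The mitophagy receptors are proteins of the outer mitochondrial membrane that bind ATG8 proteins directly. On the count scale all 3 genes were higher at 1 and 4 Hz, where 19.2% and 27.5% of all genes were. Bnip3, Bnip3l, and Fundc1 are 0.61, 0.52, and 0.71 times as long as the median gene. They lie in the second shortest 1 in 5, with medians of 0.09 and 0.11. On log2(TPM + 1) at 1 Hz they came to 0.18, 0.10, and 0.00 (adjusted p = 0.1, 0.36, and 0.98). Bnip3 spread widely under stimulation, from 700 to 814 CPM in the controls (median 795) to 722 to 1500 at 1 Hz (median 951), 899 to 1703 at 4 Hz (median 1141), and 660 to 814 at 10 Hz (median 760). At 4 Hz all 6 libraries lay above the controls, and at 1 Hz 5 of 6 were above the control mean. The log2 fold change was 0.47 (SE 0.148, adjusted p = 0.015) and 0.61 (SE 0.149, adjusted p = 0.0016). The 1 Hz call of Bnip3 was lost without replicate 4 (0.35, adjusted p = 0.073), without replicate 6 (0.32, adjusted p = 0.077), and without the 5 libraries (0.18, adjusted p = 0.11). It was kept with the length trend removed (0.39, adjusted p = 0.018) and with both that and the 5 libraries left out (0.18, adjusted p = 0.042). At 4 Hz Bnip3 was at 0.50 (adjusted p = 0.0019) with the length trend removed and at 0.46 (adjusted p = 4.6e-04) without the 5 libraries. Bnip3l, also called NIX, which clears mitochondria during differentiation, was at 318 to 372 CPM in the controls (median 343), 361 to 522 at 1 Hz (median 438), 423 to 595 at 4 Hz (median 463), and 328 to 386 at 10 Hz (median 366). It was higher by 0.37 (SE 0.0810, adjusted p = 9.3e-04) and 0.49 (SE 0.0811, adjusted p = 2.5e-05), and at 4 Hz no library overlapped the controls. Bnip3l came to 0.27 and 0.33 with the length trend removed, and without the 5 libraries to 0.27 and 0.39, past the threshold in each. A processed copy, Bnip3l-ps, is counted apart and held 1.01% as many counts. Fundc1 was higher by 0.28 (SE 0.0988, adjusted p = 0.031) and 0.26 (SE 0.0993, adjusted p = 0.032), with -0.12 on log2(TPM + 1) at 4 Hz. Both Fundc1 calls were lost with TPM centred by library (adjusted p = 0.13 and 0.16), the 4 Hz call with the length trend removed (0.20, adjusted p = 0.063), and both without the 5 libraries (0.18, adjusted p = 0.11, and 0.21, adjusted p = 0.069) and in 6 of 12 fits without 1 library at each frequency (without control replicates 3, 4, and 5 at both, 1 Hz replicates 3, 4, and 6, and 4 Hz replicates 3, 5, and 6, with adjusted p up to 0.15 and 0.2 and differences down to 0.18 and 0.14).

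Tfeb, the gene of the factor named above, did not pass at any frequency. It was at 17.3 to 24.1 CPM in the controls (median 20.9), 17.0 to 24.5 at 1 Hz (median 18.4), 19.9 to 25.5 at 4 Hz (median 23.4), and 19.6 to 24.8 at 10 Hz (median 20.8). The ranges overlapped throughout, and the log2 fold changes were -0.10 (SE 0.0956, adjusted p = 0.43), 0.16 (SE 0.0956, adjusted p = 0.17), and 0.02 (SE 0.0956, adjusted p = 0.99). TFEB is controlled largely by its place in the cell, which RNA does not show. In all, 14 members passed in no comparison with the control, with log2 fold changes between -0.18 and 0.17 at 1 Hz and between -0.22 and 0.17 at 4 Hz.

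**Figure D5:**
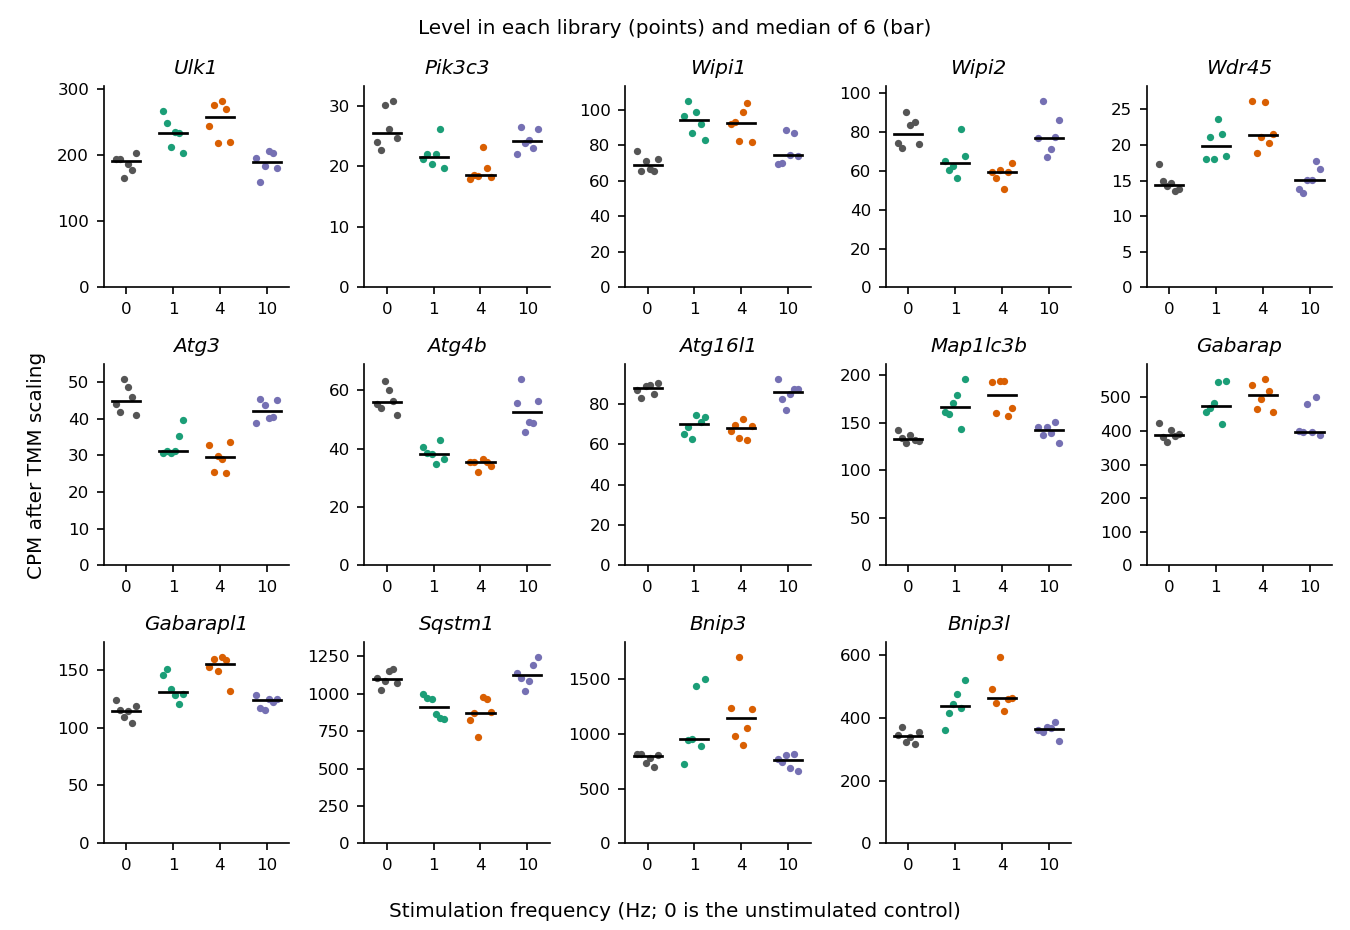
Level in CPM of the 12 members with the smallest p and of Sqstm1 and Bnip3 in every library (points, 6 per condition), with the median as a bar. Axes start at 0 and differ between genes. For Atg3, Atg4b, Atg16l1, and Sqstm1 the points at 1 and 4 Hz lie below all control points, and the 10 Hz points overlap the controls. The 2 highest Bnip3 points at 1 Hz are replicates 4 and 6.

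The frequencies were also compared with each other in the same fit. Between 4 Hz and 1 Hz, edgeR and DESeq2 called 0 of the 38 members, as edgeR did 0% of all genes, and 3 members were under an unadjusted p of 0.05. Differences between these frequencies lay between -0.19 and 0.26. The largest was that of Tfeb, 0.26 (SE 0.0965, adjusted p = 0.39), so the somewhat larger values at 4 Hz given above were not distinguishable from those at 1 Hz. Between 10 Hz and 1 Hz, 15 members (39.5%) differed beside 27.9% of all genes, and between 10 Hz and 4 Hz 21 (55.3%) did beside 46.3%.

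The comparison of 10 Hz with 4 Hz shares the 4 Hz libraries with that against the control. All 5 ATG8 genes were lower at 10 Hz than at 4 Hz, from -0.24 for Gabarap (SE 0.0774, adjusted p = 0.013) to -0.57 for Gabarapl2 (SE 0.165, adjusted p = 0.0072). Bnip3 was lower (-0.66, SE 0.149, adjusted p = 0.001) and so was Bnip3l (-0.41, SE 0.0811, adjusted p = 2.7e-04). Also lower were Ulk1, Atg101, Wipi1, Wdr45, Atg4a, Atg10, and Atg9a (-0.17, SE 0.0676, adjusted p = 0.045). Higher at 10 Hz than at 4 Hz were Atg4b (0.61, SE 0.0784, adjusted p = 1.5e-06), Atg3 (0.52, SE 0.0857, adjusted p = 3.2e-05), Sqstm1 (0.38, SE 0.0740, adjusted p = 2.4e-04), Atg16l1, Wipi2, Atg4d, and Pik3c3. The length index had a median of 0.49 at 4 Hz and -0.03 at 10 Hz. With the length trend removed, Map1lc3a and Gabarap lost their 4 Hz calls against the control. Values by gene are not given for 10 Hz against 4 Hz. In that comparison, removal of the trend gave 7 higher and 17 lower members, beside 2976 and 3046 of 13315 genes. Without the 5 libraries, 6 were higher and 7 lower, beside 2215 and 1713 of 13558 genes. Against 1 Hz, 6 members were higher at 10 Hz (Wipi2, Atg3, Atg4b, Atg4d, Atg16l1, and Sqstm1). Against 1 Hz, 9 were lower (Ulk1, Wipi1, Wdr45, Atg4a, Map1lc3b, Gabarapl2, Bnip3, Bnip3l, and Optn, with -0.22, SE 0.0725, adjusted p = 0.027). On log2(TPM + 1) the split was 5 higher and 1 lower against 1 Hz, beside 2038 and 293 of 13422 genes. It was 11 higher and 1 lower against 4 Hz, beside 4472 and 688. Of the called genes on that scale, 83.3% of the members and 87.4% of all genes were higher against 1 Hz. Against 4 Hz these shares were 91.7% and 86.7%.

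Genes around the machinery were examined in the same way, with 55 listed and 54 tested (Tfec was not). At 1 Hz, 11 were higher and 11 lower (20.4% each, beside 19.2% and 18.1% of all genes), at 4 Hz 15 and 15 (27.8% each, beside 27.5% and 23.9%), shares near the background, and at 10 Hz 0 and 0 (1 at an unadjusted p under 0.05, and the smallest adjusted p was 0.51), with medians of 0.00 and 0.02 at 1 and 4 Hz. One group held the MiT/TFE and FoxO factors, which switch on autophagy genes, and the repressor gene Zkscan3. Of its 5 tested genes, 4 were higher and 1 lower at 1 Hz and 3 were higher and 1 lower at 4 Hz. Foxo3, a factor known to drive autophagy genes in wasting muscle, averaged 89.3 CPM ± 7.51 without stimulation, 132 ± 10.9 with 1 Hz, 147 ± 14.7 with 4 Hz, and 89.9 ± 8.04 with 10 Hz. Its log2 fold change was 0.57 (SE 0.0774, adjusted p = 4.2e-06) at 1 Hz and 0.72 (SE 0.0776, adjusted p = 7.3e-08) at 4 Hz. Foxo1, its close relative, averaged 31.0 CPM ± 2.86 in the controls and 57.8 ± 4.57 at 4 Hz, and was higher by 0.58 (SE 0.0833, adjusted p = 7.8e-06) and 0.90 (SE 0.0835, adjusted p = 8.0e-09). Both transcripts are long (2.40 and 3.72 times the median gene). The longest 1 in 5 of all genes had medians of -0.10 and -0.14 at 1 and 4 Hz. The part of length in the values of Foxo3 and Foxo1 was not tested. Zkscan3, a zinc finger factor described as a repressor of autophagy and lysosome genes, averaged 31.4 CPM ± 4.90 without stimulation, 14.6 ± 0.380 with 1 Hz, 13.0 ± 3.83 with 4 Hz, and 26.6 ± 4.56 with 10 Hz. It fell by 1.11 (SE 0.138, adjusted p = 1.3e-06) and 1.27 (SE 0.141, adjusted p = 1.1e-07) on the log2 scale, more than any of the 38 members. The 3 factor genes kept their calls in all 25 other fits at both frequencies.

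Single genes that regulate the initiation and lipid kinase complexes also differed from the control. Nrbf2, a subunit that raises VPS34 activity, was higher by 0.52 (SE 0.0704, adjusted p = 3.8e-06) at 1 Hz and 0.53 (SE 0.0707, adjusted p = 1.6e-06) at 4 Hz, the latter without passing on log2(TPM + 1). Rubcn, whose product Rubicon restrains the UVRAG-containing complex, was lower, at -0.46 (SE 0.0816, adjusted p = 1.0e-04) and -0.48 (SE 0.0820, adjusted p = 3.6e-05). Prkaa1, a catalytic subunit of the energy sensor AMPK, which activates ULK1, was lower, at -0.30 (SE 0.0839, adjusted p = 0.0063) and -0.57 (SE 0.0845, adjusted p = 5.7e-06). The 11 partners of the initiation and lipid kinase complexes gave 2 higher and 3 lower at 1 Hz and 3 and 3 at 4 Hz (45.5% and 54.5% called, beside 37.3% and 51.4% of all genes). Another 14 genes encode subunits and regulators of the upstream kinases mTORC1 and AMPK. Of these, 1 was higher and 3 lower at 1 Hz, and 2 and 2 at 4 Hz. That is 28.6% at either frequency, below the share of all genes. The 10 fusion genes gave 1 higher and 2 lower at 1 Hz and 1 and 4 at 4 Hz, and the 14 further receptors gave 3 and 2, and 6 and 5.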

How the data were processed

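RNA of C2C12 muscle tissue was sequenced by the authors as paired reads, with 6 biological replicates per condition. The labels say that low-input samples were ribodepleted rather than poly(A)-selected and do not say which. For each gene the authors deposited estimated counts from salmon, made with nf-core/rnaseq on GRCm39 and not normalized, and TPM per gene, scaled by the authors to 1000000 per library. The study names a directional library kit; whether counting used the strand is not given in the sources used here. Of the deposited estimated counts, 6.15% are not whole (off by more than 0.001), and they were rounded.

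Depth was 8052369 to 18159144 counts per library. In edgeR 4.0.16 (R 4.3.3), counts were filtered with filterByExpr (10 counts, 15 in total), scaled by TMM, and tested by the quasi-likelihood F test in 1 fit of all 24 libraries, with a biological coefficient of variation of 14.8%. Adjusted p-values are Benjamini-Hochberg over 13315 genes, called under 0.05, and SE is the log2 fold change over the root of F. Relative length is the ratio of estimated count to TPM in the controls over its median. The edgeR, DESeq2, and limma fits and the removal of the length trend were tested on data simulated for 1 Hz against the control. The searches of promoters, opposite-strand overlaps, and outlying libraries were not tested in this way. No pair of libraries in a condition agreed within sampling noise. Per the study, tissues were grown in well plates with 6 biological replicates per condition of 1 cell line, so p-values measure the spread between these tissues.

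The members, lists, and tests were chosen with earlier results of these data known. Alternatives were RLE and upper-quartile factors, no filter, a stricter filter (50 counts in 6 libraries), a fit of the pair of groups alone, DESeq2 1.42.0, limma 3.58.1 on log2(TPM + 1), on log2(TPM + 0.1), and on centred log2(TPM + 1) for genes at 1 TPM in 6 libraries, a fold threshold, the replicate block, and each library left out. Removal of a length trend (a spline with 5 degrees of freedom per library, as an offset) and of the 5 libraries with an index over 0.5 was added after seeing the data. Every member called against the control was named, with values by library for the 12 with the smallest p and the highest-TPM gene of each role. Of the 55 other pathway genes, up to 2 per direction with the smallest p were named. Positions are from GENCODE M39 (98.9% of gene identifiers matched). Proteins of the ATG8 family were not used here.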

Additional observations from a re-analysis of the deposited data

Results flagged for a closer look

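In the 17 members shown by library, the highest or the lowest library of a condition was compared with its nearest neighbour in 68 groups of 6, where chance flags about 1 in 20, or 3.40, and 5 stood apart by Dixon's test. Pik3c3 was at 26.2 CPM in 1 Hz replicate 5 (nearest library 22.1) and at 23.2 CPM in 4 Hz replicate 4 (nearest 19.7), both above the rest of their condition, which was lower than the control. Wdr45 was at 17.3 CPM in control replicate 1, against 14.9 in the nearest control. Tfeb was at 24.5 CPM in 1 Hz replicate 4 (nearest 19.5) and at 24.8 CPM in 10 Hz replicate 5 (nearest 20.9). Control replicate 1 also had the highest length index of the controls, 0.23, and 1 Hz replicate 4 and 4 Hz replicate 4 are among the 5 libraries of high index. The causes were not tested.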

How the results depend on the processing

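Of 1959 values under an alternative, 1760 kept their direction and their side of the threshold or, for a count, stayed within 1.5 times the main one. Without a filter, 8 members were higher at 1 Hz, beside 1661 of the 27811 genes then tested. With pseudocounts of 1 and of 0.1, limma on TPM gave 1 higher member at 1 Hz, 4 higher and 14 lower at 4 Hz, 6 between 10 and 1 Hz, and 12 between 10 and 4 Hz, with medians of the members of -0.13 and -0.13 at 1 Hz and -0.21 and -0.22 at 4 Hz. A log2 fold change over 0.5 left 2 higher and 1 lower at 1 Hz, 4 and 2 at 4 Hz, 1 between 10 and 1 Hz, and 6 between 10 and 4 Hz. Without the 5 libraries of high length index, 13 differed between 10 and 4 Hz (3 libraries were left at 4 Hz). Directions turned on TPM with either pseudocount for Atg101 (-0.00), Map1lc3a (-0.10), and Gabarapl1 (-0.12) at 1 Hz and for Atg4a (-0.06), Atg12 (-0.13), and Fundc1 (-0.12) at 4 Hz. For Map1lc3a at 1 Hz they also turned with the length trend removed (-0.08), without the 5 libraries (-0.08), with both (-0.12), and without 1 Hz replicate 4 (-0.02, where leaving out single libraries gave -0.02 to 0.18). Without a filter the calls of Atg12, Gabarapl1, Gabarapl2, Bnip3, and Fundc1 were lost at 1 Hz and those of Atg101, Atg4a, Atg4c, Atg12, and Fundc1 at 4 Hz. The number of libraries or of genes tested differed in some of these fits, and the cause was not tested.

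Leaving out 1 library gave 9 to 14 higher and 5 to 8 lower members at 1 Hz, 12 to 16 and 7 to 9 at 4 Hz, 0 at 10 Hz, 12 to 19 between 10 and 1 Hz, 17 to 22 between 10 and 4 Hz, and 0 between 4 and 1 Hz. Conditions share replicate numbers, but same-numbered libraries did not deviate together (36 pairs, correlation -0.33 to 0.24, median -0.02, 3 pairs over 0.1), and 0 of 24 libraries correlated best with their own number. With the replicate block, 13 members were higher and 7 lower at 1 Hz, 15 and 9 at 4 Hz, 14 differed between 10 and 1 Hz, and 21 between 10 and 4 Hz. At this depth and spread, SE of the members reached 0.165, which limits what can be said of Atg10, Gabarapl2, and Bnip3.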
